A study of Mus musculus with 2 samples.

Results

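The receptors of the TGF-beta superfamily were examined in mouse fibro-adipogenic progenitors (FAPs), the mesenchymal cells of skeletal muscle that can become adipocytes. The 10 receptors were chosen by gene name: the type III receptors Tgfbr3 and Eng, the type II receptors Tgfbr2, Acvr2a, Acvr2b and Bmpr2, and the type I receptors Tgfbr1, Acvr1b, Acvr1 and Bmpr1a. Each was found once among the 26082 genes of the files. The rule uses names alone, and the set was drawn up with earlier results of these data known. The study asked how TGFBR3 acts on the fate of FAPs. Wild-type primary FAPs were transfected with a plasmid for TGFBR3 overexpression (label: TGFBR3 OE) or with the vector (label: control), and both cultures are labelled as under adipogenic differentiation. The medium for this contained insulin (10 μg/ml), dexamethasone (0.25 μM), IBMX (0.5 mM) and FBS (20%). RNA-seq was done on 1 library of each kind. The FAPs were sorted from hind limb muscle before culture, and the share of cells that took up the plasmid is not given in the sources used here. Mice bought for the work were C57BL/6 and 6 to 8 weeks old. The age and sex of those that gave these cultures are not stated separately, and the time of harvest and the species of the TGFBR3 insert are likewise not given. The counts are per gene, so that reads from a mouse insert and from the chromosomal gene cannot be told apart.

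Ligands of this superfamily are dimers that bring together a pair of type II and a pair of type I receptors, both of which are transmembrane serine/threonine kinases. The type II receptor phosphorylates the type I receptor, which then phosphorylates Smad2 and Smad3 (TGF-beta and activin branch) or Smad1, Smad5 and Smad9 (BMP branch). Type III receptors lack a kinase domain. Betaglycan, the product of Tgfbr3, holds TGF-beta and presents it to the type II receptor, and it also raises the affinity of inhibin for the activin type II receptors. In fibroblast-like cells of muscle, TGF-beta is known as a driver of matrix production and an inhibitor of adipogenesis.

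The depth was 62321027 summed counts for the library labelled TGFBR3 OE and 83779203 for control, with 19804 and 19545 genes above 3 counts. The receptors held 67508 and 88698 of these counts, which is 0.108% and 0.106%. With a single library (n = 1) on each side, the spread between cultures is unknown and no test could be run. Values are FPKM (fragments scaled to exon length and library total) and the log2 ratio of (FPKM + 1), TGFBR3 OE over control, which understates the change of low genes. Intervals are exact 95% Clopper-Pearson intervals for the ratio and exact Poisson intervals for a level. They hold counting error only, so they set one library against the other and not one treatment against the other. Genes whose FPKM, averaged over both libraries, was 1 or more are called expressed genes (11213 genes). The median log2 ratio of the 10626 genes that reached this level in each library was 0.13, and centred values are those with this shift taken off. GC content was taken from 1 principal transcript per gene, which need not hold all exon bases that are counted. Across the expressed genes the median log2 ratio went from 0.45 in the lowest of 20 bins of this GC content to −0.27 in the highest. The mesenchymal label was met by high FPKM of Pdgfra (30.5 and 32.6) and Ly6a (1013 and 706), genes of usual FAP surface marks. Of the 8 FAP markers, 6 had intervals below 0, where 29.8% of the expressed genes did. Of them 1, Dpt, was past 2-fold lower (0.475% of all genes), at 3.48 against 8.72 in control. The summed FPKM of the endothelial markers was 2.17 and 2.03, and those of immune and muscle markers were 0.59 and 0.44, and 1.16 and 0.81. The immune sum covers 5 of 6 listed genes. The muscle sum covers 3 of 6, Des, Myog and Ckm, and so leaves out Pax7, Myod1 and Myf5. Ptprc was at 0 counts in the library labelled TGFBR3 OE and at 4 in control. Mural markers summed to 92.7 and 99.1, of which Pdgfrb, which FAPs share, made 88.9 and 94.3, while Rgs5 was at 0.14 and 0.12. The 6 adipocyte markers summed to 32.1 and 40.6, with 4 intervals below 0 and 2 above. Fabp4 was at 12.6 and 13.9 and Adipoq, past 2-fold lower, at 5.69 and 13.01, while Pparg was at 2.19 and 1.61 (log2 ratio 0.29, −0.02 with the GC trend removed) and Lpl at 10.02 and 8.86 (0.16, −0.25 with the GC trend removed). Tenocyte markers summed to 2.93 and 4.11 and Schwann cell markers to 0.11 and 0.09.

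In the study, predicted targets of human let-7f-5p and miR-16-5p were crossed with a transcriptome of FAPs given exosomes of platelet-rich plasma. Tgfbr3 was reported as the only gene on both lists. By RT-PCR its mRNA was reported higher in adipogenesis and lower with these exosomes. The study also reported luciferase reporter assays of the binding of both miRNAs to its 3′ UTR. Lower TGFBR3 mRNA and protein were reported in FAPs transfected with the miRNAs. The mature sequences of both mouse miRNAs (RefSeq, GRCm38.p6) and the matches in the receptors are shown first. The capitals mark the seed, bases 2 to 8, in the miRNAs and its reverse complement in the transcripts. The miRNAs have different seeds.
mmu-let-7f-5p: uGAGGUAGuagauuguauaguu
mmu-miR-16-5p: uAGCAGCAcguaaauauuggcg
Tgfbr3, let-7f match, chr5:107106950-107106979, minus strand, mm10: tttgtactgtaaCTACCTCatggtttgaat
Tgfbr3, miR-16 match, chr5:107109314-107109343, minus strand, mm10: tttttttttttaTGCTGCTttgtccaggtg
Tgfbr1, let-7f match, chr4:47410831-47410860, plus strand, mm10: aggctggttgttCTACCTCactgagagaac
Tgfbr1, miR-16 match, chr4:47412236-47412265, plus strand, mm10: gggtcttctcacTGCTGCTggagttaggtg
Acvr1b, let-7f match, chr15:101210924-101210953, plus strand, mm10: cgtcgtggaggcCTACCTCttgtttctgcc
Acvr1b, miR-16 match, chr15:101211532-101211561, plus strand, mm10: actgtctctgagTGCTGCTgcttctcagtg
These are the receptors whose principal transcript held both the 7-letter let-7f match CTACCTC and the 7-letter miR-16 match TGCTGCT in its 3′ UTR, searched on the transcript strand alone. The let-7f match occurred in no other receptor. The miR-16 match occurred in 9 of the 10 receptors, with Acvr1 as the exception, and Acvr1b held a second copy that overlaps the one shown. Of 20787 mouse 3′ UTRs, 8.20% held the let-7f match, 19.0% the miR-16 match and 2.96% both. The receptors have long 3′ UTRs, with a median of 2945.5 nt. Among the 8636 UTRs within the receptors' range of length, from 1097 to 8529 nt (median 2110.5 nt), the shares were 14.8%, 33.8% and 6.14%. A match is a description of these letters and no measure of regulation. The ratios of the receptors with both matches lay on both sides of 0, at 0.07 for Tgfbr3, 0.15 for Tgfbr1 and −0.24 for Acvr1b. Neither library is labelled as given a miRNA, so these ratios cannot bear on the matches.

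Tgfbr3, the gene named on the plasmid, was at nearly the same level in both libraries. Tgfbr3 (ENSMUSG00000029287) lies at chr5:107106570-107289629 of mm10 on the minus strand, and its principal transcript has 17 exons and 6087 nt, of which 2550 are coding. It had 16372 counts and an FPKM of 36.9 (36.3 to 37.4) in the library labelled TGFBR3 OE. In control it had 21245 counts and 35.1 FPKM (34.7 to 35.6). The log2 ratio was 0.07 (0.04 to 0.10), a 1.05-fold difference (1.03 to 1.07). Its level was above that of 94.7% of all genes in both libraries. Relative to the median gene the sign turned, with a centred log2 ratio of −0.06. The value was −0.15 on TMM-scaled CPM and −0.11 with the GC trend removed. Among the 11213 expressed genes, 87.3% showed a larger absolute log2 ratio than Tgfbr3. The study measured TGFBR3 by RT-PCR in FAPs transfected with the plasmid or the vector, and those values are not given in the sources used here. The species of the insert is not given either, so whether its reads would be counted to the mouse gene is unknown. Since the ratio of the targeted transcript was no higher than that of the median gene, the libraries are called by their labels throughout. Each direction is that of the labels.

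The levels of the 10 receptors covered a wide range, with the type III receptors and Tgfbr2 at the top and Acvr2b near the floor. Acvrl1, a type I receptor outside this set, was at 43.2 FPKM against 38.5 in control, above Tgfbr3 and Tgfbr2 in both libraries. In the library labelled TGFBR3 OE the order by FPKM was Eng, Tgfbr3, Tgfbr2, Bmpr1a, Acvr1, Acvr1b, Acvr2a, Bmpr2, Tgfbr1 and Acvr2b. Of neighbours in this order, Bmpr2 and Tgfbr1 had overlapping counting intervals. In control the order was Eng, Tgfbr2, Tgfbr3, Acvr1, Acvr1b, Bmpr1a, Acvr2a, Tgfbr1, Bmpr2 and Acvr2b, and the intervals overlapped for Tgfbr2 and Tgfbr3, for Acvr1 and Acvr1b, and for Tgfbr1 and Bmpr2. Bmpr1a thus stood 2 places higher in the library labelled TGFBR3 OE, and no other receptor changed by more than 1 place. FPKM divides by all exon bases of a gene, and for Tgfbr2 these are 8187 nt against 3476 nt in its principal transcript. With counts divided by the principal transcript's length instead, Tgfbr2 came second in the library labelled TGFBR3 OE and first in control, Eng first and second, and Tgfbr3 behind them in both.

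**Figure D1:**
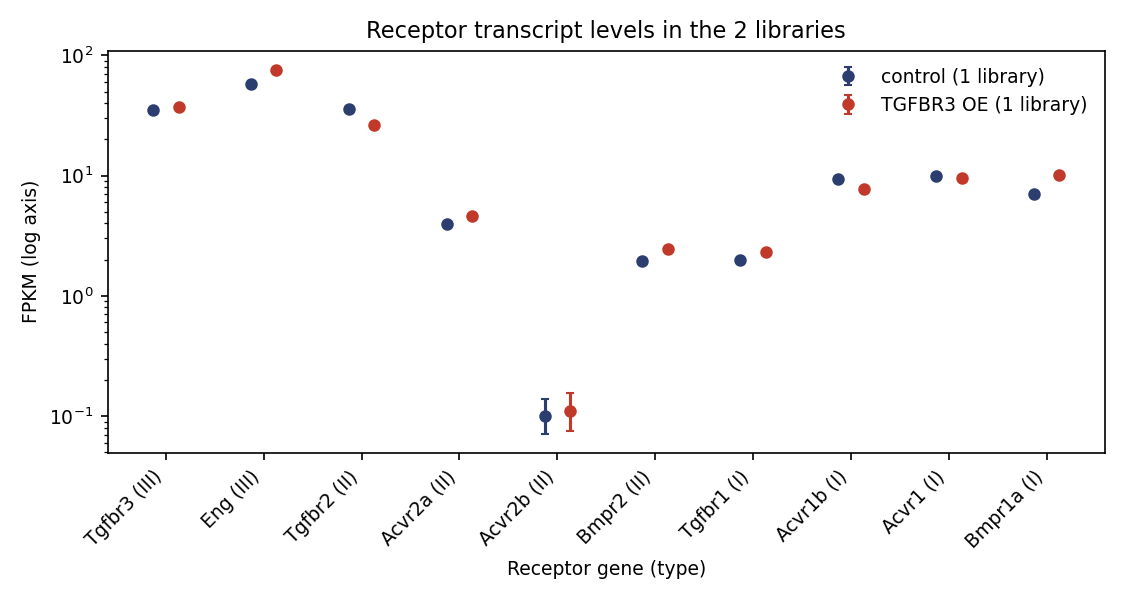
FPKM (log axis) of the 10 receptors, with the receptor type in brackets, in the control library (blue) and the library labelled TGFBR3 OE (red), 1 point per library, with bars for the exact 95% Poisson interval of the count. Tgfbr3 lies at 36.9 and 35.1, Eng is highest at 75.9 and 57.8, and Acvr2b is near 0.1 in both libraries.

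Eng was the most abundant of the receptors and was higher in the library labelled TGFBR3 OE. It encodes endoglin, the type III receptor that binds BMP9 and BMP10 and is best known from endothelial cells and mesenchymal stromal cells (ENSMUSG00000026814, chr2:32646595-32682669, plus strand, 15 exons). Its FPKM was 75.9 (74.9 to 77.0) against 57.8 (57.0 to 58.6), from 20853 and 21616 counts. The log2 ratio was 0.39 (0.36 to 0.41), or 1.31-fold, and it stayed above 0 under all 8 alternatives, between 0.17 on TMM-scaled CPM and 0.50 with the GC trend removed. None of the 6 endothelial markers was above 1.09 FPKM in either library. Pecam1 was at 0.05 and 0.01 FPKM, Emcn at 0.07 and 0.01, and Tie1 at 0 in both. Cdh5 was at 0.58 and 0.84, from 165 and 328 counts. Kdr was higher in the library labelled TGFBR3 OE, at 0.43 and 0.08 FPKM from 262 and 65 counts, with a log2 ratio of 0.40 that was 1.42 on TMM-scaled CPM. The highest endothelial marker was Tek, at 1.04 and 1.09, and the part of such cells in the value of Eng was not tested further.

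Among the type II receptors, Tgfbr2 was lower in the library labelled TGFBR3 OE. Tgfbr2 encodes the kinase that binds TGF-beta and receives it from betaglycan (ENSMUSG00000032440, chr9:116084293-116175360, minus strand, 7 exons). It was at 26.4 FPKM (25.9 to 26.8) against 35.6 (35.1 to 36.0) in control, with 14641 and 26894 counts. This is a log2 ratio of −0.42 (−0.45 to −0.39), or 0.741-fold, which placed it at the 9.47th percentile of the expressed genes. Under the 8 alternatives its ratio lay between −0.69 and −0.40. It was the lowest ratio of the 10 receptors in the main comparison and under each alternative.

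The activin and BMP type II receptors were less abundant, and their ratios were smaller. Acvr2a, which binds activins and, with betaglycan, inhibin (ENSMUSG00000052155, chr2:48814109-48903269, plus strand), was at 4.58 FPKM against 3.95, from 1765 and 2075 counts. Its log2 ratio was 0.17 (0.10 to 0.25), but −0.28 with the GC trend removed. Acvr2b, the second activin type II receptor (ENSMUSG00000061393, chr9:119402118-119434995, plus strand), had 31 and 37 counts, an FPKM of 0.11 and 0.10 and a ratio of 0.01 (−0.05 to 0.09). Without a pseudocount its log2 ratio was 0.14 with an interval from −0.55 to 0.92, so at this depth no difference could be detected. Bmpr2, the type II receptor for BMPs (ENSMUSG00000067336, chr1:59763400-59879014, plus strand), was at 2.46 FPKM (2.37 to 2.55) against 1.93 (1.86 to 2.00), from 3002 and 3207 counts. Its log2 ratio was 0.24 (0.19 to 0.29), with −0.20 after removal of the GC trend and −0.09 after removal of the trend over exon length. At this level the pseudocount shrinks the ratio, which was 0.35 without it. The trends come from all expressed genes, so their removal may take off too much here.

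The type I receptors differed among themselves in direction, with Bmpr1a higher and Acvr1b lower in the library labelled TGFBR3 OE. Bmpr1a encodes ALK3, a type I receptor for BMPs (ENSMUSG00000021796, chr14:34410734-34503341, minus strand, 13 exons). It was at 10.2 FPKM (9.88 to 10.5) against 7.09 (6.88 to 7.31), from 4389 and 4163 counts. The log2 ratio of 0.47 (0.41 to 0.52), or 1.44-fold, was the highest of the 10 receptors. It lay at the 79.6th percentile of the expressed genes, and it was 0.02 once the GC trend was removed. Acvr1b, which encodes the activin type I receptor ALK4 (ENSMUSG00000000532, chr15:101174067-101213684, plus strand), was at 7.76 FPKM (7.45 to 8.08) against 9.37 (9.08 to 9.67), from 2328 and 3823 counts. Its log2 ratio was −0.24 (−0.31 to −0.18) and between −0.48 and −0.26 under the alternatives.

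Acvr1 and Tgfbr1 were closer to even. Acvr1 encodes ALK2, a type I receptor for BMPs and activin-like ligands (ENSMUSG00000026836, chr2:58388644-58567157, minus strand). It was at 9.46 FPKM (9.13 to 9.80) against 9.93 (9.64 to 10.2), from 3100 and 4434 counts, with a log2 ratio of −0.06 (−0.12 to −0.00) that reached −0.29 on TMM-scaled CPM. Tgfbr1 encodes ALK5, the type I receptor that acts with Tgfbr2 (ENSMUSG00000007613, chr4:47353222-47414931, plus strand). It was at 2.32 FPKM (2.18 to 2.47) against 1.99 (1.88 to 2.11), from 1027 and 1204 counts. Its log2 ratio was 0.15 (0.07 to 0.23), and 0.02 when centred and −0.29 with the GC trend removed.

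**Figure D2:**
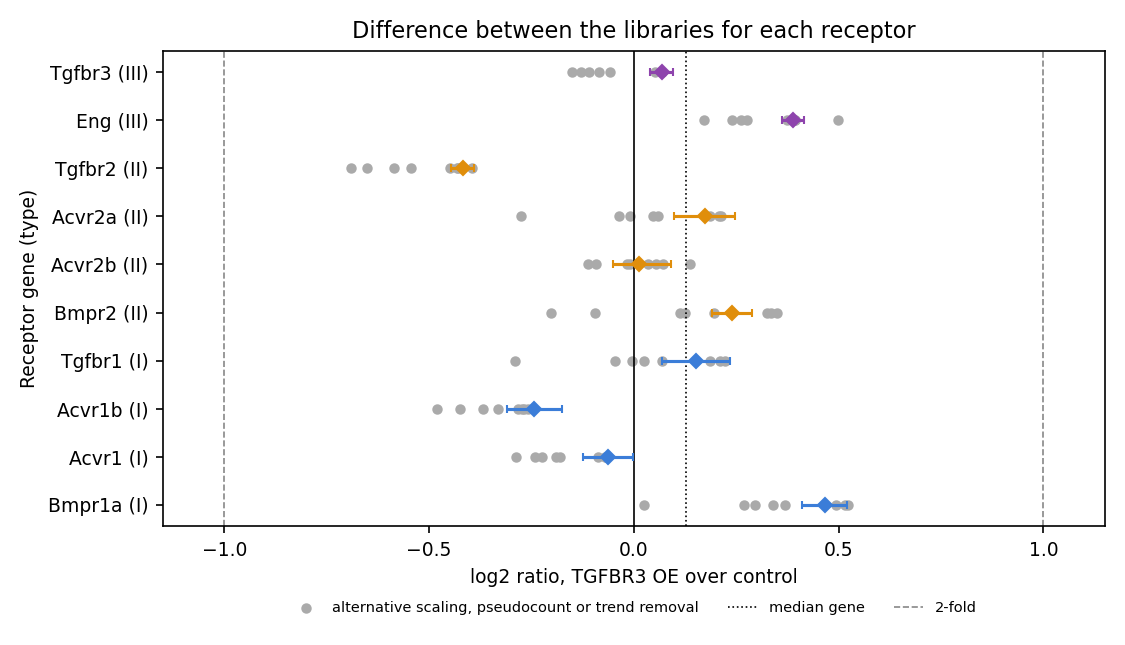
Log2 ratio of (FPKM + 1), TGFBR3 OE over control, for each receptor (diamonds, coloured by type, with the exact 95% counting interval), and the ratio under 8 alternative scalings, pseudocounts or trend removals (grey points). The dotted line is the median gene at 0.13 and the dashed lines are 2-fold; Tgfbr3 lies at 0.07 and crosses 0 under several alternatives, while Tgfbr2 (−0.42) and Eng (0.39) keep their side.

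No receptor was past 2-fold in either direction, where 1.89% of the 26082 genes were (1.41% higher and 0.475% lower), and 4.17% of the expressed genes (3.14% higher). The counting interval lay above 0 for 6 receptors, below 0 for 3 and across 0 for 1, Acvr2b. Among all genes with counts it lay away from 0 for 55.9%, above for 37.5% and below for 18.4%, and among the expressed genes for 84.9%, 55.1% and 29.8%. Relative to the median gene, 3 receptors lay above (Eng, Bmpr2 and Bmpr1a) and 5 below (Tgfbr3, Tgfbr2, Acvr1b, Acvr1 and, on the scale with a pseudocount, Acvr2b), where all genes gave 23.5% and 53.4% and the expressed genes 43.2% and 41.1%. The intervals of Acvr2a and Tgfbr1 held the median gene. The median log2 ratio of the receptors was 0.11, or −0.02 when centred and −0.22 with the GC trend removed, beside 0.03 for all genes and 0.14 for the expressed genes. The quartiles of the expressed genes were −0.14 and 0.40, and of the 9 receptors among them Tgfbr2, Acvr1b and Bmpr1a were outside these.

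**Figure D3:**
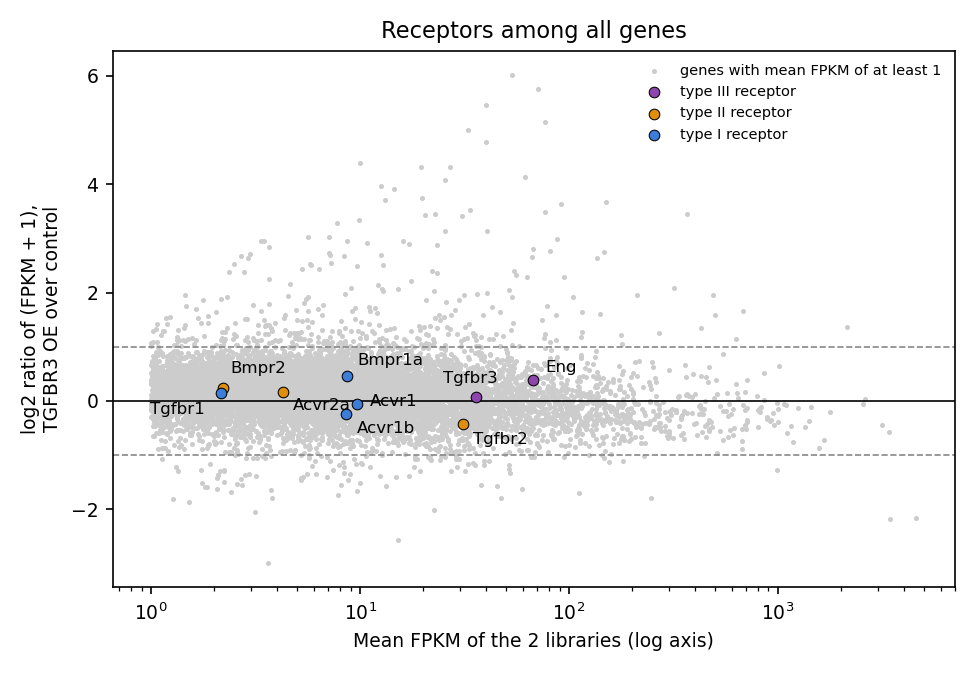
Log2 ratio of (FPKM + 1), TGFBR3 OE over control, against the mean FPKM (log axis) of the 11213 expressed genes (grey) and of the 9 receptors among them (coloured by type); dashed lines are 2-fold. The receptors lie inside the dashed lines, from −0.42 for Tgfbr2 to 0.47 for Bmpr1a.

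The make-up of the receptor pool within a library does not depend on how the libraries are scaled against each other. Type III receptors made 64.1% of the summed receptor FPKM in the library labelled TGFBR3 OE and 57.1% in control. Type II receptors made 19.0% and 25.5%, and type I receptors 16.9% and 17.4%. These are shares of the chosen set alone. Acvrl1, a type I receptor at 43.2 and 38.5 FPKM, is outside it, so the shares of the types depend on the choice of genes. The share of Eng was 43.1% against 35.5%, that of Tgfbr2 was 15.0% against 21.8%, and that of Tgfbr3 was 20.9% against 21.6%. By counts, which are not divided by length, Tgfbr3 held 24.3% (23.9 to 24.6) and 24.0% (23.7 to 24.2), and these intervals overlap. The largest differences in share were those of Eng and Tgfbr2, in opposite directions. Bmpr1a held 5.78% and 4.35%, Acvr1 5.37% and 6.10%, and Acvr1b 4.41% and 5.75%. The other receptors held at most 2.60% each.

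**Figure D4:**
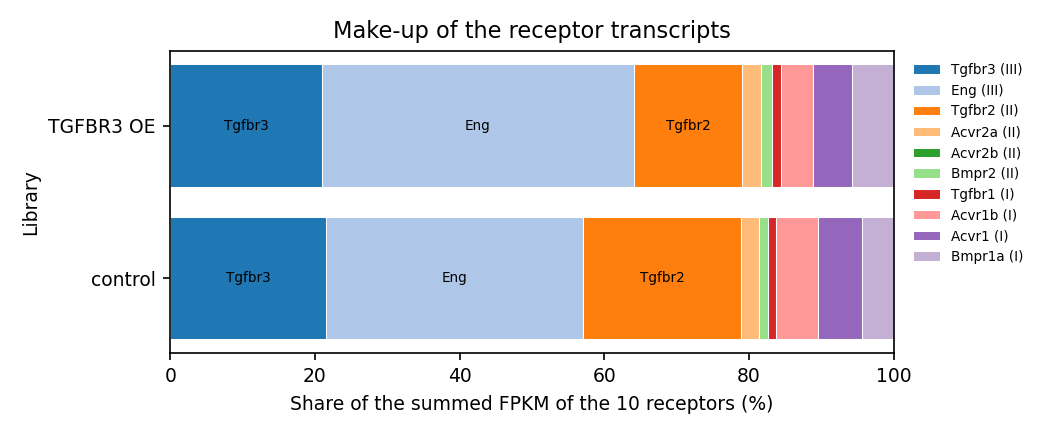
Share of each receptor in the summed FPKM of the 10 receptors (percent, stacked bars), 1 bar per library. Tgfbr3 takes 20.9% and 21.6%, while Eng takes 43.1% in the library labelled TGFBR3 OE and 35.5% in control, and Tgfbr2 15.0% and 21.8%.

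Tgfbr3 was set against each receptor that it could present ligand to or share ligand with, as a ratio within the library. Per Tgfbr2 there were 1.40 Tgfbr3 in the library labelled TGFBR3 OE and 0.988 in control, in FPKM. The ratio of these ratios from the counts was 1.42 (exact conditional 95% interval 1.38 to 1.46). By principal transcript length the levels were 0.639 and 0.451 Tgfbr3 per Tgfbr2, so which of them is more abundant depends on the length used. Against Tgfbr1 the ratio was 15.9 and 17.7, a change of 0.903 (0.828 to 0.985). For the activin and inhibin receptors, Tgfbr3 was 8.05 and 8.89 times Acvr2a, 0.906 (0.847 to 0.969), and 4.75 and 3.75 times Acvr1b, 1.27 (1.20 to 1.34). Against the BMP receptors it was 15.0 and 18.2 times Bmpr2, 0.823 (0.780 to 0.869), and 3.62 and 4.95 times Bmpr1a, 0.731 (0.697 to 0.766). Against Acvr1 the ratio was 3.90 and 3.54, a change of 1.10 (1.05 to 1.16). Of 9 such ratios, 3 were higher in the library labelled TGFBR3 OE, 5 were lower, and that to Acvr2b was open at 0.920 (0.555 to 1.53). With the GC trend taken off each gene, 4 were higher, 2 were lower (Eng and Bmpr1a) and 3 were open. The ratio to Acvr2a then turned to 1.09 (1.02 to 1.17), those to Tgfbr1 and Bmpr2 were open at 1.09 (0.995 to 1.18) and 0.989 (0.937 to 1.04), and that to Tgfbr2 was 1.23 (1.20 to 1.27). Which way Tgfbr3 moved thus turned on the receptor it was set against and, for Acvr2a, on the GC trend.

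Ratios within 8 pairs of receptors, of one complex or branch or across branches, were also set against each other between the libraries. That of Acvr2a to Acvr2b was open, with a ratio of ratios of 1.02 (0.610 to 1.70). Tgfbr2 was 11.4 times Tgfbr1 in FPKM in the library labelled TGFBR3 OE and 17.9 times in control, a ratio of ratios of 0.638 (0.585 to 0.696). Acvr1b was 1.69 and 2.37 times Acvr2a, 0.716 (0.659 to 0.778). Bmpr1a was 4.14 and 3.67 times Bmpr2, 1.13 (1.05 to 1.20), and 1.08 and 0.714 times Acvr1, 1.51 (1.42 to 1.61). The widest shift among the 8 pairs compared was that of Bmpr1a against Tgfbr2, at 0.386 and 0.199, or 1.94 (1.85 to 2.03). This pair is across branches. It sets the receptor with the highest log2 ratio (0.47) against that with the lowest (−0.42), so no other pair of receptors could shift more. Its rank thus adds nothing to the separate ratios of both genes. The intervals of the pairs hold counting error alone, and the pairs share genes. The low GC of Bmpr1a's principal transcript (41.3%) and the higher GC of Tgfbr2's (54.6%) ran with the GC trend across genes. For Tgfbr2 this transcript has 3476 nt, while the gene has 8187 exon bases. With the GC trend taken off, the shift of Bmpr1a against Tgfbr2 was 1.40 (1.34 to 1.47). On the same footing Tgfbr2 against Tgfbr1 was 0.881 (0.808 to 0.960), and Acvr1b against Acvr2a was open at 0.967 (0.890 to 1.05). Acvr1 against Acvr1b was then open as well, at 1.03 (0.957 to 1.10).

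The GC content of the receptors' principal transcripts ran from 39.9% to 57.4%. Acvr2a, Bmpr2, Tgfbr1 and Bmpr1a, with 39.9% to 41.3%, all had ratios above 0, and with the GC trend removed these were −0.28, −0.20, −0.29 and 0.02. Eng, with the highest GC at 57.4%, went from 0.39 to 0.50, against the trend. The part of GC content in these values was not tested beyond this removal. Genes on the opposite strand share exon bases with Acvr2a (Orc4, 446 bases, 1767 and 972 counts), Bmpr1a (Gm17110, 290 bases, 18 and 45 counts) and Eng (Fpgs, 61 bases, 1256 and 2156 counts). Tgfbr3 shares 297 exon bases with Gm43422 on its own strand, which had 11 and 8 counts. The strand setting of the counting is not given in the sources used here, so reads from these overlaps cannot be told apart. Of a receptor's 31-base words, at most 7.32% also occurred in the transcripts of another gene, in Acvr2a, and 4.13% in Tgfbr3.

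The other genes of the pathway were read from lists by role. The 4 receptors outside the set had a median log2 ratio of 0.14, or 0.02 when centred. Acvrl1, the type I receptor that works with endoglin, was at 43.2 FPKM against 38.5, with a log2 ratio of 0.16 (0.13 to 0.20) that was −0.06 on TMM-scaled CPM, and Bmpr1b was at 1.04 and 0.87 (0.13, −0.32 with the GC trend removed). Of the 7 co-receptors, 3 had intervals above 0 and 3 below, with a median of 0.03 that was −0.10 when centred. Nrp2, a neuropilin, was at 25.5 and 22.1 FPKM (0.20, but −0.02 on TMM-scaled CPM and −0.14 with the exon length trend removed). Vasn, a TGF-beta-binding membrane protein, was at 51.3 and 63.4 (−0.30), and Rgma, a BMP co-receptor, at 2.58 and 3.63 (−0.37, and −0.10 with the GC trend removed).

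Regulators of receptor turnover and signalling had the highest median of the 9 pathway lists in the main comparison. This median was 0.31, or 0.19 when centred, and from 0.08 to 0.36 over the main measure and the 8 alternatives. Of the 18, 13 had intervals above 0 and 4 below, beside 55.1% and 29.8% of the expressed genes, and 11 lay above and 5 below the median gene, beside 43.2% and 41.1%. Usp15, a deubiquitinase of the receptor complex, was at 3.13 FPKM against 1.27 (0.86, interval 0.81 to 0.91, and 0.42 with the GC trend removed). Smad7, the inhibitory Smad that brings ubiquitin ligases to Tgfbr1, was at 9.09 and 6.18 (0.49), and Strap, a partner of Smad7, at 55.9 and 40.1 (0.47, and 0.12 with the GC trend removed). Of the 6 proteases that shed or cut betaglycan and related proteins, 5 had intervals above 0 and 1 below, with a median of 0.19 that was −0.04 with the GC trend removed. Mmp16, a membrane-type matrix metalloproteinase, was at 1.66 and 0.75 (0.60, and 0.16 with the GC trend removed), and Psen2, which encodes a membrane protease, at 5.13 and 6.48 (−0.29).

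Among the 19 ligands, 2 were past 2-fold higher and none past 2-fold lower, beside 1.41% and 0.475% of all genes. Inha, the alpha subunit of inhibin, which betaglycan helps to bind activin type II receptors, had 463 and 135 counts and an FPKM of 4.62 and 0.98 (log2 ratio 1.51, 1.33 to 1.66). Amh, the anti-Müllerian hormone, whose own type II receptor Amhr2 had 22 and 4 counts, had 152 and 4 counts and an FPKM of 1.33 and 0.02 (1.19, 1.10 to 1.23). The beta subunits, which make inhibin with Inha or activin by themselves, were under 2-fold. Inhba was at 14.2 and 11.3 FPKM (0.31, but −0.13 with the GC trend removed) and Inhbb at 28.8 and 38.8 (−0.42, and −0.15 with that trend removed). Tgfb3, a ligand of betaglycan, was at 12.1 and 11.5 (0.07, −0.15 on TMM-scaled CPM), and Gdf6, a BMP-like factor, at 0.60 and 1.64 (−0.72). Over the list, 7 intervals lay above 0 and 7 below, with a median of −0.01.

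Ligand-binding extracellular proteins gave 1 gene past 2-fold of 17, Grem1, beside 1.41% of all genes and 3.14% of the expressed genes past 2-fold higher. This BMP antagonist was at 49.1 FPKM against 20.9, with a log2 ratio of 1.20 (1.16 to 1.24), and 0.84 with the GC trend removed, which is under 2-fold. Other antagonists were on the opposite side, with Chrd, which binds BMPs, at 1.12 and 2.67 (−0.79), and Fst, which binds activins, at 3.52 and 6.58 (−0.75). Over the list, 6 intervals lay above 0 and 9 below, with a median of −0.05.

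Downstream of the receptors, no Smad, non-Smad or target gene was past 2-fold in the main comparison. All 6 receptor-regulated and common Smads had intervals above 0, as had 55.1% of the expressed genes, with a median of 0.17, while 2 lay above and 1 below the median gene, and the median was −0.05 with the GC trend and −0.03 with the exon length trend removed. On the log2 scale Smad1 was at 0.27 (0.10 with the GC trend removed), Smad2 at 0.26 (−0.09) and Smad4 at 0.17 (−0.0034). Of the 8 genes of non-Smad branches, 4 intervals lay above 0 and 4 below, with a median of 0.14 (0.01 when centred). The highest were Tab2 (0.63), an adaptor of the kinase TAK1, Traf6 (0.59), the ubiquitin ligase that couples Tgfbr1 to TAK1, and Rock1 (0.46), a kinase downstream of RhoA. With the GC trend removed these were 0.45, 0.27 and 0.02. Of 18 target genes, 6 had intervals above 0 and 10 below, beside 55.1% and 29.8% of the expressed genes, and 5 lay above and 12 below the median gene. Their median was −0.06 and lay between −0.28 and −0.06 over the main measure and the 8 alternatives. The list pools target genes of the TGF-beta and BMP branches, so this median describes neither branch alone. Ltbp2 was at 87.5 FPKM against 151 (−0.78) and Tagln, a contractile protein induced by TGF-beta, at 107 and 184 (−0.78). Snai2, a transcription factor, was at 13.5 and 7.24 (0.82, and 0.38 with the GC trend removed). On TMM-scaled CPM, genes named above came past 2-fold that had not done so in the main comparison: Kdr (1.42), Usp15 (1.05), Gdf6 (−1.32), Chrd (−1.35), Fst (−1.08) and Ltbp2 (−1.01). On CPM without TMM, Kdr (1.55), Usp15 (1.25), Gdf6 (−1.16) and Chrd (−1.17) were past 2-fold already, as was Mmp16 (1.02). Fst (−0.88) and Ltbp2 (−0.81) were not. In bulk RNA, fewer cells of a type and less RNA per cell cannot be told apart.

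**Figure D5:**
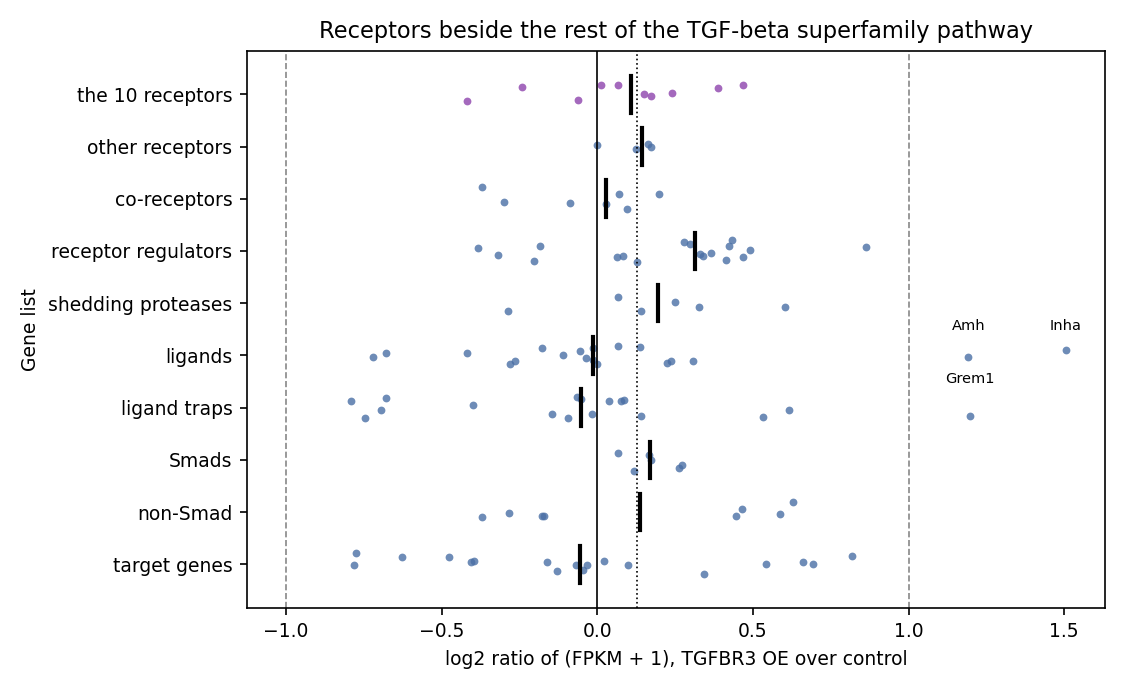
Log2 ratio of (FPKM + 1), TGFBR3 OE over control, for each gene (points, spread vertically for legibility) of the 10 receptors and 9 lists of pathway genes; thick bars are list medians, the dotted line is the median gene at 0.13 and dashed lines are 2-fold. Inha, Amh and Grem1 lie past the upper dashed line, and the receptors lie between −0.42 and 0.47.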

How the data were processed

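Primary mouse FAPs were profiled by RNA-seq, with 1 library labelled TGFBR3 OE and 1 labelled control. Per the labels, poly(A) RNA was used, the second strand was marked with dUTP, and reads were paired at 150 nt. The sources differ on the mapping: the study's methods name a KC-Digital stranded kit, STAR and FeatureCounts on mm10, and the submitters' processing notes name cutadapt 1.9, HISAT2 2.2.1, StringTie 2.1.6, DESeq2 and edgeR with mm10. The annotation release, the strand setting of the counting and the use of molecular identifiers are not given in the sources used here. For each gene the authors deposited a raw count and an FPKM, which is that count scaled by exon length and a library total. The deposited FPKM values were compared on the log2 scale with a pseudocount of 1, and the deposited counts gave the intervals. The counts are whole and summed to 62321027 and 83779203. Called means past 2-fold. With 1 library per group, no test was run.

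GENCODE M21 (mm10) gave gene positions, GC content of the principal transcript, exon length and 3′ UTRs, and it lacks 70 of the deposited gene identifiers. The alternatives were a pseudocount of 0.1, the plain ratio, CPM, centring on the median gene, TMM scaling with edgeR 4.0.16 in R 4.3.3, and removal of the median trend in 20 bins of GC content or exon length. The bin medians were those of the expressed genes, taken off the log2 ratio of (FPKM + 1). For genes of low FPKM, whose ratios the pseudocount shrinks, this may take off too much. The centred plain ratio, shares and ratios by principal transcript length, and ratios between receptors with the GC trend taken off were chosen after seeing the data. Calculations were done in Python 3.11.15 with scipy 1.17.1 and pandas 2.3.3. The log2 ratio without a pseudocount and its counting interval were tested on simulated Poisson counts, and the other measures were not. The receptors and the 17 lists (9 of pathway genes, 8 of markers) were chosen with earlier results of these data known. Of the pathway lists, the genes named are those past 2-fold, the up to 3 with the largest absolute ratio among genes that reached an FPKM of 1 in a library, Tgfb3 and the inhibin subunits; Amhr2, the overlapping genes and the markers beyond the gate genes and the highest of each list were named after their values were seen. Of the listed genes, 10 were not analysed here. Of the genes that this rule names, 1 is not reported here.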

Additional observations from a re-analysis of the deposited data

How the results depend on the processing

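No paired analysis was possible because each group has 1 library and no result comes from a test. For the same reason no replicate could be left out. No receptor was past 2-fold under any of the 8 alternatives, and none was past 1.5-fold in the main comparison. Under 3 alternatives Tgfbr2 was past 1.5-fold lower, at −0.65 on TMM-scaled CPM, −0.69 with the exon length trend removed and −0.59 for the centred plain ratio. The log2 ratio of Tgfbr3 turned from 0.07 to −0.058 when centred on the median gene, −0.084 for the centred plain ratio, −0.15 on TMM-scaled CPM, −0.11 with the GC trend removed and −0.13 with the exon length trend removed. The median of the receptors (0.11) was 0.18 for the plain ratio, 0.022 for the centred plain ratio, −0.017 when centred, −0.0095 with TMM, −0.22 with the GC trend removed and −0.093 with the length trend removed. Of the other receptors, Eng, Bmpr1a, Tgfbr2, Acvr1b and Acvr1 kept their sign under all 8 alternatives, Bmpr2 under 6, Acvr2a and Tgfbr1 under 5 and Acvr2b under 4. The share of Tgfbr3 in the receptors (20.9% and 21.6%) was 24.3% and 24.0% by counts, 56.2% and 48.3% of the 3 TGF-beta receptor genes alone, and 16.9% and 16.4% by principal transcript length. The number of genes past 2-fold higher (369) was 2061 with a pseudocount of 0.1, 2926 for the plain ratio, 2174 for the centred plain ratio, 638 for CPM, 234 with the GC trend removed and 1685 at 1.5-fold. The number lower (124) was 798, 1080, 1304 and 197 for the first 4 of these, 195 when centred, 372 with TMM and 608 at 1.5-fold. Centring and TMM moved the split of higher against lower genes from 369 and 124 to 275 and 195, and to 390 and 372. The causes of these shifts were not tested beyond the construction of each alternative. Against 0, counting error left only Acvr2b open in the main comparison, with 31 and 37 counts. Against the median gene it left Acvr2a and Tgfbr1 open.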
